A study of Caenorhabditis elegans with 2 samples.

Results

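The 385 regions described here are the autosomal distal intergenic places among the strongest candidate binding regions of the Hox protein LIN-39 in L4 larvae of *Caenorhabditis elegans*. They were chosen by the signal of the pooled candidate list, which holds 30000 regions. The 2000 regions of highest pooled signal were taken, and the 464 on the X chromosome were dropped (0 were mitochondrial). Of the 1536 autosomal regions left, 385 (25.1%) had a summit in no protein-coding gene and outside the stretch from 1000 bp upstream to 200 bp downstream of any protein-coding gene's 5' end. The other autosomal regions of the 2000 lay inside genes (706) or at promoters (445). A further 5295 autosomal distal intergenic candidates ranked below 2000, and these lower-ranked candidates, which obey the same rule of position, are the main background below.

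ChIP-seq, the sequencing of DNA recovered with a protein by immunoprecipitation, was made on whole L4 larvae of mixed sex from strain OP18, with genotype *unc-119(ed3)* III; *wgIs18*. The transgene *wgIs18* expresses a fusion of LIN-39 with green fluorescent protein (eGFP), and the *unc-119* mutation is shared by both samples. There were 2 biological replicates of 1 group, so no contrast between genotypes, tissues or stages exists, and whole animals pool all cells in which the tagged protein is made. Both replicate lists and the pooled list were called against the same control file, so they are not independent.

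LIN-39 belongs to the Hox family of homeodomain proteins and patterns the mid-body of the worm, where it acts in vulval precursor cells, ventral cord neurons, migrating Q neuroblast descendants and the postembryonic mesoblast. Hox proteins often bind DNA together with PBC-class partners such as CEH-20, at a composite core that can be written TGATNNAT. Distal intergenic DNA can hold enhancers and the start sites of non-coding RNA genes. GA-rich stretches (GAGAGA or TCTCTC) are known at promoters of this species and at places where many transcription factors have been mapped together.

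The sequences of 10 of these regions, each 201 bases centred on the pooled summit, are given as examples. They were read from the plus strand of the RefSeq WBcel235 assembly (ce11). The first 9 belong to the 15 regions of highest pooled signal, in that order. Their pooled ranks are 44, 47, 55, 58, 59, 61, 64, 96 and 98. Of these 15, those at ranks 76, 77, 81, 92, 95 and 97 are not shown. The regions at ranks 76, 81, 92 and 95 held neither GAGAGA nor TGATNNAT, that at 97 held GAGAGA and that at 77 both. The last of the 10 was added because it holds the Hox-PBC core. Each is named by its left and right flanking protein-coding genes, and capitals mark GAGAGA or TGATNNAT on either strand.
sup-26 to R10E4.3, chrIII:4282165-4282365: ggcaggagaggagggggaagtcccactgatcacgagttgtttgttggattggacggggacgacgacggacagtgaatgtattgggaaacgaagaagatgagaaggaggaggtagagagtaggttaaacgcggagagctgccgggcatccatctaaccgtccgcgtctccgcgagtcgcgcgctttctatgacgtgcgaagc
T23G4.127 to tlp-1, chrIV:13699614-13699814: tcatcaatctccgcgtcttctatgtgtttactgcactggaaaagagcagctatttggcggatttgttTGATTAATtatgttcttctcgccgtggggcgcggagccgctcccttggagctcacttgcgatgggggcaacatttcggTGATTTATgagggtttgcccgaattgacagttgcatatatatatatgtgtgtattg
C17C3.24 to ins-13, chrII:5543460-5543660: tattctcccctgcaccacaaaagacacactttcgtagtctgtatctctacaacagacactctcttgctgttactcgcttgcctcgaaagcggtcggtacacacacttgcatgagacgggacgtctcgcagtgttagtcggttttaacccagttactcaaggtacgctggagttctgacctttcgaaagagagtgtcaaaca
F54F12.1 to Y39E4B.6, chrIII:13061137-13061337: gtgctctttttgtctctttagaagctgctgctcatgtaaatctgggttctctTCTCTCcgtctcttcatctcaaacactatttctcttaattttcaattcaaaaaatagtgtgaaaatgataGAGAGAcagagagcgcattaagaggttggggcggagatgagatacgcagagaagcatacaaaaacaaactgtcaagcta
npl-10 to F37A8.5, chrIII:3953191-3953391: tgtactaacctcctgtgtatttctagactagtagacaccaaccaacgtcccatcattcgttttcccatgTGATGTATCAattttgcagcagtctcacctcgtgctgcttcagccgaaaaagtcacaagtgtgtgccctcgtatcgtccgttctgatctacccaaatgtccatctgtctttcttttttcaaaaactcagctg
C46F11.6 to npr-15, chrIII:3677433-3677633: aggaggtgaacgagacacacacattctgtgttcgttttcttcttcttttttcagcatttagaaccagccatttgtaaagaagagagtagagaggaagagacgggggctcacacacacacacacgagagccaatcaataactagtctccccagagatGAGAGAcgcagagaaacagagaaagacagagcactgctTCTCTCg
gldi-3 to mtrr-1, chrII:9282895-9283095: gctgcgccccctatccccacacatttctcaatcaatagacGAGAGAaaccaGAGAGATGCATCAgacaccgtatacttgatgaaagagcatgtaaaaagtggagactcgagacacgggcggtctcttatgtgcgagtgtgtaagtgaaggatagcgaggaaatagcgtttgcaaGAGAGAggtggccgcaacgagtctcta
lpin-1 to letm-1, chrV:13655178-13655378: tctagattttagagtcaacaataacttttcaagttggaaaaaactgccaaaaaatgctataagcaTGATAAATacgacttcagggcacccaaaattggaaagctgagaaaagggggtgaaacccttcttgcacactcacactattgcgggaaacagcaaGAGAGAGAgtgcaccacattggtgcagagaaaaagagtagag
cpf-2 to unc-64, chrIII:13275891-13276091: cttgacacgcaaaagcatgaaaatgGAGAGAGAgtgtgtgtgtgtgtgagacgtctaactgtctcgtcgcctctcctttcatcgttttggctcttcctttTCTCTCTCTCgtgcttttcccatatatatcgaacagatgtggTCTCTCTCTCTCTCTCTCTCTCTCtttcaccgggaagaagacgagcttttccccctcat
glb-10 to efr-3, chrII:6310514-6310714: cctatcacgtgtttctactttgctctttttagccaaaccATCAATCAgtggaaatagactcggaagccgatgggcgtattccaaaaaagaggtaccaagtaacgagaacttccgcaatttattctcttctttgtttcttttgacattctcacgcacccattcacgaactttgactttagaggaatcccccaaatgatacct
The region beside *sup-26*, the highest of all 385, held neither pattern and had a GC content of 56.7%. The *tlp-1* region held 2 composite cores, written TGATTAAT and TGATTTAT. The *npl-10* region held a pair of cores, 1 on each strand, that overlap in the run TGATGTATCA. The *unc-64* region held 15 overlapping matches of GAGAGA, read as TCTCTC for the most part, and the *gldi-3* region held 3 of GAGAGA and a core that overlaps 1 of them. The region between *glb-10* and *efr-3*, at pooled rank 233, held the core as ATCAATCA on the plus strand and no GAGAGA.

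The pooled signal, the authors' enrichment over the control, ran from 25.2 to 54.3 in these 385 regions with a median of 28.2. Divided by the median of its own list, hereafter the relative signal, it ran from 1.51 to 3.25 with a median of 1.69. These are the values that the choice used, and the spread was narrow: the first quartile was 1.57 and the third quartile 1.86. The lowest regions kept had signals of 25.2190, 25.2166 and 25.2136 at ranks 1994, 1995 and 1999, and the highest autosomal distal regions not kept had 25.2057, 25.1934 and 25.1819 at ranks 2005, 2010 and 2019. The limit of distance was as gradual. The regions just past it lay 1011, 1018 and 1021 bp upstream of a 5' end, the first being the *tlp-1* region, and the promoter regions just inside lay at 999, 998 and 998 bp. Of the 385 regions, 29 lay 1001 to 1200 bp upstream of a 5' end, while 57 promoter regions lay at 801 to 1000 bp.

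The share of distal regions among the strongest candidates was near the background: 6.78% of all 5680 autosomal distal candidates were among the 2000 highest, against 6.67% of all 30000 candidates. On the authors' thresholded list, made from the pooled and replicate lists with an irreproducible discovery rate threshold, were 28 of the 385 regions (7.27%, 95% Wilson interval 5.08 to 10.3), against 163 of all 30000 candidates (0.543%). These 28 had pooled ranks of 163 or better, so this count follows from the pooled signal and says nothing further about the regions. The 28 include regions on which the replicates differed widely, such as those beside *tlp-1* and *T26H5.8* described below. Wilson intervals here and below cover counting error over regions only, and regions are not replicates.

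The replicates placed the regions very differently. A region was taken as found in a replicate list when the summits lay within 200 bp and were each other's nearest. Of the 385, 327 (84.9%, interval 81 to 88.2) were found in both replicate lists, 23 in that of replicate 1 only, 34 in that of replicate 2 only and 1 in neither, against 28.9% of all candidates found in both. Only 46 (11.9%, interval 9.08 to 15.6) were among the 2000 highest of both replicates, against 0.803% of all candidates. A further 99 were among the 2000 highest of replicate 1 only, 140 of replicate 2 only and 100 of neither. The median rank was 2882 in replicate 1 (range 22 to 28774, 350 regions found) and 1926 in replicate 2 (range 29 to 29774, 361 regions found). Since both replicates went into the pooled signal, this is a description of how the regions came to be chosen.

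**Figure D1:**
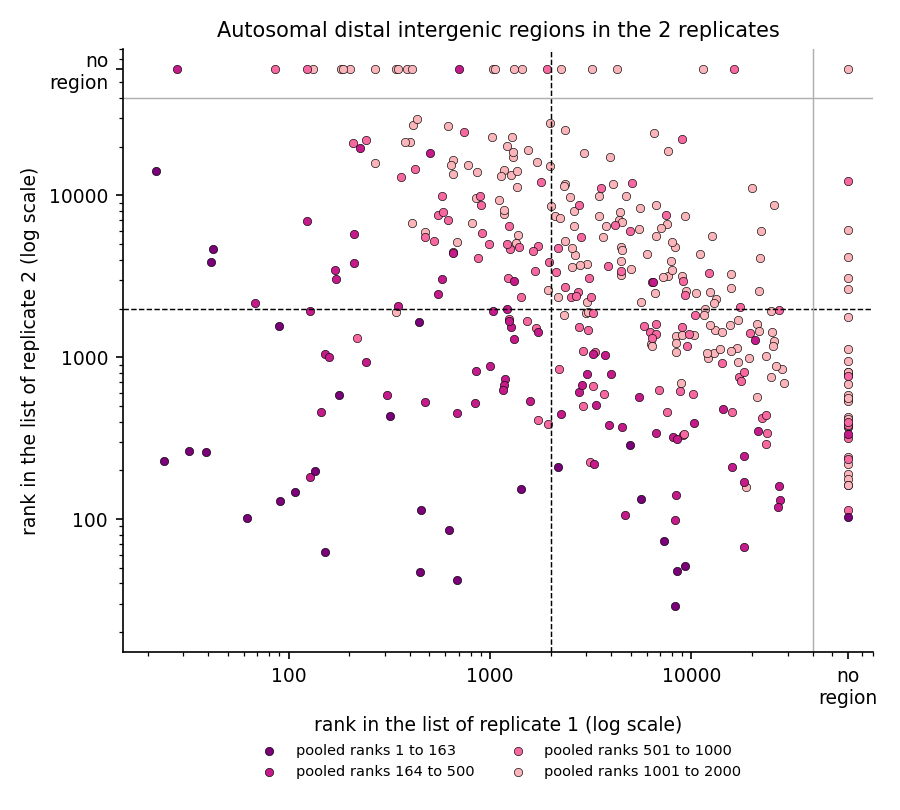
Rank of each of the 385 regions in the list of replicate 1 (x axis, log scale) and replicate 2 (y axis, log scale), coloured by pooled rank, with dashed lines at rank 2000 and regions not found in a list set at its margin. The 46 regions of the lower left corner are high in both replicates, while 99 and 140 are among the 2000 highest of replicate 1 or of replicate 2 alone.

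Agreement was lower at the lower pooled ranks. Among the 2000 highest of both replicates were 17 regions at pooled ranks 1 to 163 (60.7% of that band), 22 at ranks 164 to 500 (32.4%), 6 at ranks 501 to 1000 (5.77%) and 1 at ranks 1001 to 2000 (0.541%). Other classes of the 2000 highest had similar shares, with 14.8% of the 445 autosomal promoter regions, 9.35% of the 706 regions in autosomal genes and 14.2% of the 197 distal regions on X.

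The 15 regions of highest pooled signal had pooled ranks from 44 to 98. The region 2041 bp upstream of *sup-26*, a gene for an RNA-binding protein, had a relative signal of 2.74 in replicate 1 and 2.67 in replicate 2. Between *lpin-1*, the worm lipin, and *letm-1*, a mitochondrial membrane protein gene, the relative signal was 2.44 in replicate 1 and 2.46 in replicate 2. The region 8351 bp upstream of *tol-1*, the worm's Toll receptor gene, had 2.54 in replicate 1 and 2.50 in replicate 2. These are regions on which the replicates differed little.

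Other regions near the top rested mainly on 1 replicate. The region between *T23G4.127* and *tlp-1*, a zinc-finger transcription factor gene, had a relative signal of 1.18 (rank 8246) in replicate 1 and 4.03 (rank 29) in replicate 2. Between *C33D9.3* and *clec-182*, a C-type lectin gene, it was 1.15 (rank 9236) in replicate 1 and 3.23 (rank 51) in replicate 2. The region between *T26H5.8* and *T26H5.10* went the other way, with 3.89 (rank 22) in replicate 1 and 1.02 (rank 14051) in replicate 2. A relative signal near 1 is that of the middle of a replicate's own list. The gap of *clec-182* held another region, at pooled rank 139, with 2.04 in replicate 1 and 2.02 in replicate 2.

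In 5 more of the 15 regions both replicates had ranks within their 2000 highest, with unequal relative signals. The region beside *npl-10* had relative signals of 3.22 and 2.19 in replicates 1 and 2, and that between *C46F11.6* and *npr-15*, a gene for a neuropeptide receptor-like protein, had 1.95 and 3.28. Between *gldi-3* and *mtrr-1*, a methionine synthase reductase gene, they were 1.84 and 3.41. Between *F54F12.1* and *Y39E4B.6* they were 2.29 and 3.06, and between *sup-1* and *mrt-2*, a checkpoint gene needed for telomere maintenance, 1.86 and 2.80. Of these 5, replicate 1 was higher at *npl-10* and replicate 2 at the other 4.

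Of a list of 20 synaptic and pan-neuronal genes, 17 were on autosomes. A gene of this list was the nearest protein-coding gene of 7 of the 385 regions (1.82%) and of 0.378% of the 5295 lower-ranked candidates. It flanked 11 regions (2.86%), at 7 genes, and 0.642% of the lower-ranked candidates. The list was written with earlier results of these data known, and no test was made. The highest was 1227 bp upstream of *unc-44*, the neuronal ankyrin gene, with relative signals of 2.35 in replicate 1 and 2.31 in replicate 2. At 1267 bp upstream of *unc-64*, the syntaxin gene, they were 1.95 in replicate 1 and 2.59 in replicate 2. The region 2051 bp upstream of *unc-13*, a priming factor of synaptic vesicles, was at pooled rank 367, rank 2874 in replicate 1 and rank 670 in replicate 2.

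The other neuronal genes were looked up after their values were seen. Another region lay 6161 bp upstream of *unc-64* (pooled rank 291, rank 18260 in replicate 1 and rank 67 in replicate 2). Beyond the 3' end of *snt-1*, the synaptotagmin gene, lay 3 regions at 4760, 7044 and 9407 bp, in the gap shared with *egl-27*. At *egl-3*, a proprotein convertase gene that processes neuropeptides, 1 region lay 3936 bp from the 5' end and another 1020 bp from the 3' end. *ric-4*, the SNAP-25 gene, and *unc-31*, the CAPS gene of dense-core vesicle release, had 1 region each, and neither region was high in both replicates: that of *ric-4* was at rank 506 in replicate 1 and 18284 in replicate 2, and that of *unc-31* had no match in replicate 1 and rank 375 in replicate 2.

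Genes of the classical LIN-39 processes were neighbours of few regions, at shares near the background, as given below. Those on X could not be neighbours, which left 8 Hox genes and cofactors, 26 vulval genes, 22 Wnt genes and 17 ventral cord genes. Of 11 Hox genes and cofactors, 1 was the nearest gene of a region: *egl-5*, the posterior Hox gene, whose 5' end lay 6789 bp from a region at pooled rank 1983 (rank 12301 in replicate 1 and 1572 in replicate 2). Of 30 vulval genes, *let-23*, the epidermal growth factor receptor gene, was nearest to 1 region, 1366 bp beyond its 3' end, at pooled rank 792. *lin-12*, the Notch receptor gene, *lin-17*, a Frizzled gene, and *lip-1*, a MAP kinase phosphatase gene, flanked 1 region each at 2692, 3546 and 6016 bp from their 5' ends. Of 24 genes of Wnt signalling and Q cell migration, *cwn-2*, a Wnt ligand gene, had a region 2419 bp upstream (pooled rank 339, rank 2753 in replicate 1 and 607 in replicate 2), and *dsh-1*, a Dishevelled gene, had 1 at 1163 bp upstream (pooled rank 1461). Of 20 ventral cord neuron genes, *ida-1*, a dense-core vesicle gene, was nearest to 1 region at pooled rank 1236.

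As shares of the regions these lists were near the background. The nearest gene was from the Hox list in 0.26% of the 385 regions and 0.227% of the lower-ranked candidates, from the vulval list in 0.26% and 0.34%, from the Wnt list in 0.519% and 0.264%, and from the ventral cord list in 0.26% and 0.151%. No region had a gene of the mesoblast, ribosomal protein, histone or *col* collagen list as its nearest gene, against 0.132%, 0.283%, 0.0378% and 0.793% of the lower-ranked candidates. Of the 269 nuclear hormone receptor genes, 246 were on autosomes. Of these, 10 were nearest to 11 regions (2.86%, against 1.83%), the highest being those of *nhr-135* at pooled rank 535, *nhr-62* at rank 623 and *nhr-21* at rank 797. Of the *ceh* homeobox genes, *ceh-23* was nearest to 1 region, 2091 bp upstream at pooled rank 1497, and the list made 0.26% of the regions and 0.321% of the lower-ranked candidates. With 0 to 2 regions in most lists, differences between these shares could not be resolved.

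Of the 385 regions, 87 (22.6%, interval 18.7 to 27) had an annotated non-coding RNA gene within 200 bp of the summit, against 18% of the lower-ranked candidates, and in 21 regions (5.45%, against 3.17%) the summit lay inside such a gene. Chosen from the list of replicate 1 or of replicate 2 alone, 19.3% (interval 15.5 to 23.7) or 20.9% (interval 17.1 to 25.2) had such a gene within 200 bp, and both intervals include 18%. The share was also larger for the class annotated only as ncRNA, with 39 regions (10.1%, interval 7.5 to 13.5) against 4.53%, and in long intergenic RNAs (lincRNA), with 10 regions (2.6%, interval 1.42 to 4.71) against 0.963%. The share next to any non-coding RNA gene other than a piRNA gene was 13.8%, against 5.97%. Pseudogenes went the other way, with 22 regions (5.71%) against 11.7%. In the autosomal promoter, autosomal gene and distal X regions of the 2000 highest the share without piRNA genes was 10.3%, 8.78% and 19.8%. Shares of single classes were not measured in the lists of the replicates alone.

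**Figure D2:**
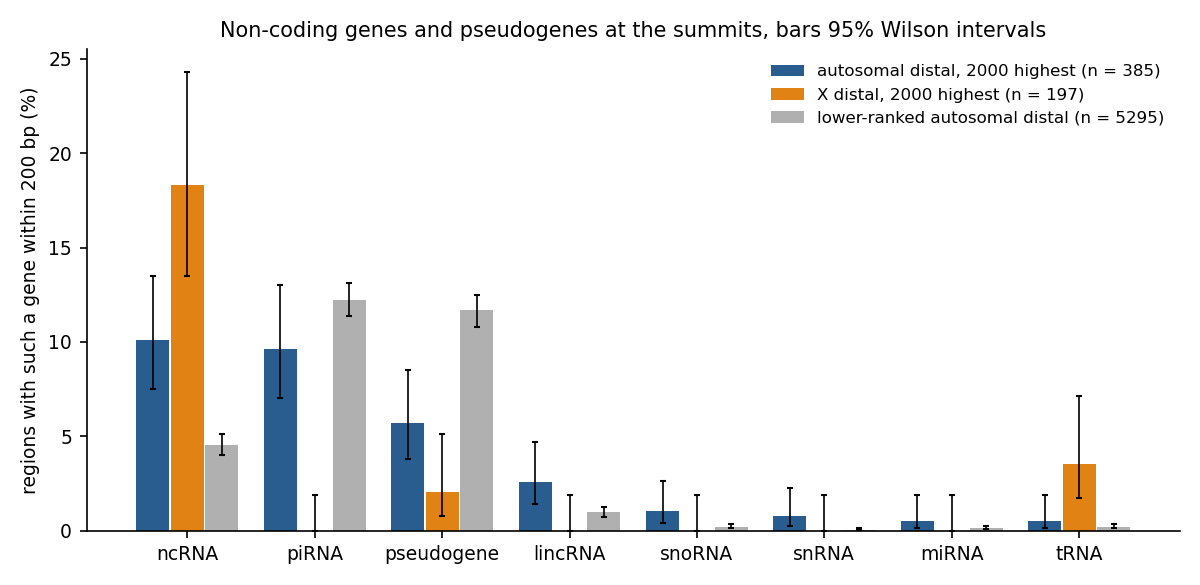
Share of regions (y axis, %) with a gene of each non-coding class or a pseudogene (x axis) within 200 bp of the summit, for the 385 regions, the 197 distal X regions of the 2000 highest and the 5295 lower-ranked autosomal distal candidates, with 95% Wilson intervals. Genes of the ncRNA class lay near 10.1%, 18.3% and 4.53% of the regions in these classes, and pseudogenes near 5.71%, 2.03% and 11.7%.

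Small RNA genes of known function were few but included some of the strongest regions. The region at pooled rank 55, between *C17C3.24* and *ins-13*, an insulin-like peptide gene, lay 38 bp from *sls-2.2*, a gene for SL2 RNA, the spliced leader that is joined to downstream genes of operons. Its relative signal was 3.65 in replicate 1 and 2.24 in replicate 2. Its gap of 2726 bp held 3 regions, the others being at pooled rank 337, 62 bp from *sls-2.2*, and at pooled rank 1745, 35 bp from *sls-2.3*. With those, 3 of the 385 regions (0.779%) lay within 200 bp of a small nuclear RNA gene, and 0.0567% of the lower-ranked candidates did. Of the 36-base words around the summits at ranks 55, 337 and 1745, 27.1%, 0% and 29.5% occurred again in the genome, so some reads there may have come from other SL2 gene copies, which was not tested.

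The region at pooled rank 59 had its summit inside *F37A8.7*, a small nucleolar RNA gene, in the *npl-10* gap. Near the small nucleolar RNA genes *ZK20.9*, *T19B4.8* and *F28D9.6* lay 3 more regions (4 regions in all, 1.04%, against 0.208%). The region at pooled rank 81 lay 173 bp from *cel-mir-52*, a microRNA gene of the miR-51 family, with relative signals of 3.00 in replicate 1 and 2.19 in replicate 2. The other microRNA gene, *cel-mir-8209*, held the summit of the region at rank 1995, at the lower edge of the choice. Transfer RNA genes were within 200 bp of 2 regions (0.519%, against 0.208%), at pooled ranks 1199 and 1537, and of 3.55% of the 197 distal X regions. No region lay near an annotated ribosomal RNA gene, which allows a share of up to 0.779% (3 counts of 385, with a Wilson upper limit of 0.988%). Neither did any of the 5295 lower-ranked candidates or of all 30000 candidates, so this absence is shared by the whole list.

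The highest lincRNA regions had their summits inside *linc-128* (pooled rank 160), *linc-135* (636) and *linc-126* (639). Genes of piRNAs, the small RNAs of the germ line whose genes lie in clusters on chromosome IV, were near 37 regions (9.61%), against 12.2% of the lower-ranked candidates. Of these 37, 35 lay on chromosome IV, where they made 39.3% of the 89 regions. Near a piRNA gene lay 648 of the lower-ranked candidates, and 1499 of those candidates lay on chromosome IV. Their share near a piRNA gene on that chromosome was not measured, so the 39.3% has no background beside it. The piRNA genes were near 3.57% of the regions at pooled ranks 1 to 163, 4.41% at ranks 164 to 500, 14.4% at ranks 501 to 1000 and 9.73% at ranks 1001 to 2000. The ncRNA class had the opposite order, with 17.9%, 13.2%, 7.69% and 9.19% in the same bands. These orders rest on few regions. At ranks 1 to 163 and 164 to 500, piRNA genes lay near 1 of 28 and 3 of 68 regions. Genes of the ncRNA class lay near 5 and 9 of them, and within each class the intervals of the bands overlapped.

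On the chromosomes the regions were spread evenly per length. Chromosome I had 66 regions (4.38 per Mb), II 74 (4.84), III 57 (4.14), IV 89 (5.09) and V 99 (4.73). Chromosome IV held 23.1% of the regions (interval 19.2 to 27.6) and 28.3% of the lower-ranked candidates, so 5.6% of its autosomal distal candidates were kept, against 7.96% of those on chromosome I. From the list of replicate 1 or of replicate 2 alone it held 23.7% (interval 19.6 to 28.4) or 26.5% (interval 22.3 to 31). Both of these intervals include 28.3%. The outer 30% at each end of the chromosomes, the arms, held 46.5% of the regions (interval 41.6 to 51.5) and 56.3% of the lower-ranked candidates. Among the 2000 highest the arms also held 44.9% of the autosomal promoter regions and 42.5% of the regions in autosomal genes. They held 54.8% of the distal X regions.

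The gaps between protein-coding genes that held a region had much the same make-up as those of the lower-ranked candidates. The flanking genes ran in tandem for 217 regions (56.4%, against 54.5%), apart from each other for 126 (32.7%, against 30.2%) and towards each other for 42 (10.9%, against 15.2%). The nearest gene end was a 3' end for 44.7% of the regions (interval 39.8 to 49.7) and 50.7% of the lower-ranked candidates. Chosen from the list of replicate 1 alone the share was 51.1%, no lower than in those candidates, and from that of replicate 2 alone it was 43.8%. The median gap was 7463 bp, against 7234 bp, and the median distance to the nearest gene end 1852 bp, against 1711 bp. No gene end lay within 5000 bp of 42 regions (10.9%, against 11%). Regions in convergent gaps, which hold no promoter of a protein-coding gene, were among the 2000 highest of both replicates in 1 of 42 cases (2.38%), and those in divergent gaps in 21 of 126 (16.7%).

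The 385 regions fell in 338 gaps, of which 38 held more than 1 region (85 regions in all). The largest group was 4 regions over 8856 bp between *frpr-4*, a peptide receptor-like gene, and *drn-1*, a Ras-like gene, on chromosome II, at pooled ranks 1016 to 1797. The gap of *npl-10* held 3 regions within 2213 bp at pooled ranks 59 to 474. Within 5000 bp of another region lay 65 (16.9%), and 4 overlapped another in their intervals of 344 bp. These gaps were looked up after their values were seen. The same counts were not made for other candidates, so whether the 385 regions group more closely is not known.

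Base composition of the 385 regions as a whole was close to that of their surroundings, and GC content was highest at the top ranks. The median GC content of the 201 bases around the summit was 33.8% in the 385 regions and 33.3% in their flanks, against 32.3% and 33.6% in the lower-ranked candidates. In the 28 regions at pooled ranks 1 to 163 the median around the summit was 44%, and in the next bands it was 34.1%, 33.3% and 33.3%. The GC content of the flanks was not measured by band. More than 50% of the bases were soft-masked as repeats in 22.9% of the regions and 29.6% of the lower-ranked candidates. In the autosomal promoter, autosomal gene and distal X regions of the 2000 highest this share was 20%, 19.1% and 19.8%. No region consisted mostly of 36-base words that occur again in the genome (0 of 385, up to 0.779% by 3 counts and 0.988% by the Wilson limit), against 0.415%, and 3.64% held any such word, against 7.27%. Any such word was in 2.7% of the autosomal promoter regions, 3.26% of the regions in autosomal genes and 7.11% of the distal X regions. Tandem repeats of at least 20 bases were found in 6 regions (1.56%, interval 0.716 to 3.36, against 0.755%), of which 4 were runs of AG: 31 bases in the *tol-1* gap at pooled rank 77, 25 bases in the *unc-64* region, 21 bases at *oac-50* and 31 bases between *mvk-1* and *wht-7*.

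Of the 10 short patterns searched, the GA repeat differed most from the background. GAGAGA on either strand lay within 100 bp of the summit in 87 of the 385 regions (22.6%, interval 18.7 to 27), in 11.9% of their 770 flanking windows centred 500 bp away, and in 10.7% of the lower-ranked candidates. GAGAGA also matches inside longer AG runs. Runs of at least 20 bases were in 4 regions, and shorter runs were not counted. The Hox-PBC core TGATNNAT lay in 86 regions (22.3%, interval 18.5 to 26.8), in 14% of the flanks and in 17% of the lower-ranked candidates. By the same rule of position, the 2000 highest regions of replicate 1 alone gave 358 distal regions, of which 16.2% held TGATNNAT and 17.6% GAGAGA, and those of replicate 2 alone gave 393, of which 21.6% and 19.3% did. The share of the core in the list of replicate 1 alone was thus no higher than in the lower-ranked candidates. The same letters in reverse order, TANNTAGT, which keep the base composition, lay in 5.45% of the regions (interval 3.59 to 8.19), 10.1% of the flanks and 8.37% of the lower-ranked candidates.

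**Figure D3:**
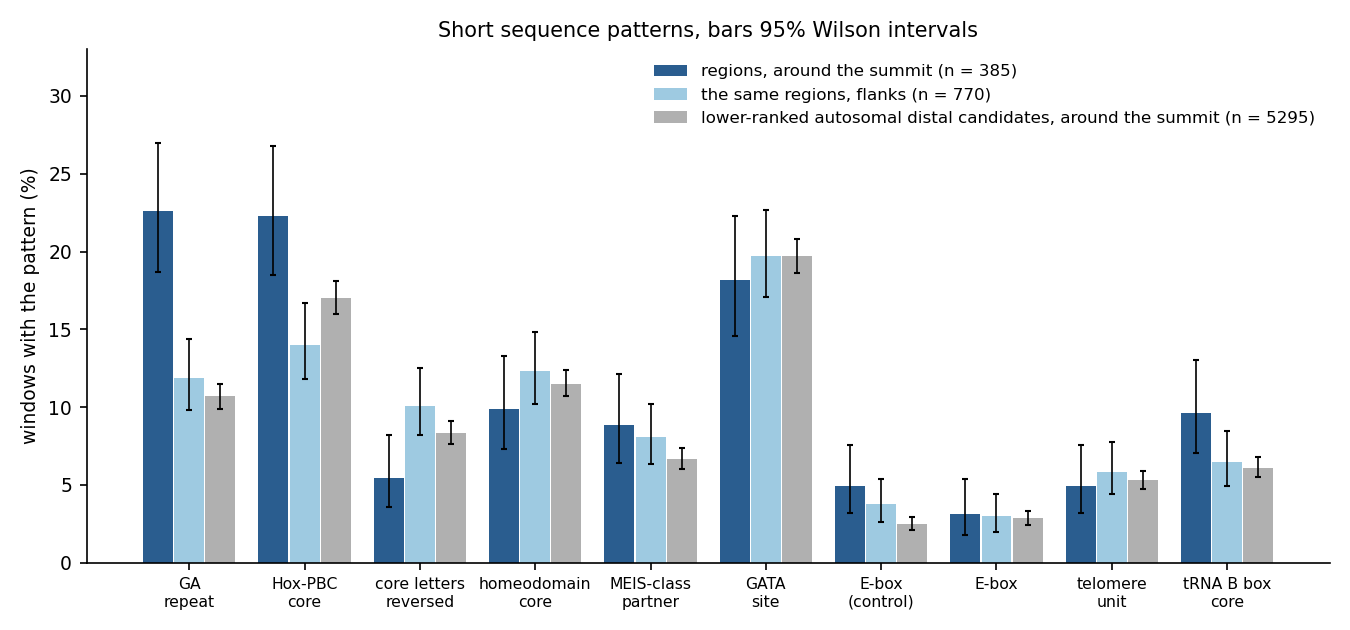
Share of 201 bp windows (y axis, %) that hold each of 10 short patterns (x axis) around the summits of the 385 regions, in their 770 flanks, and around the summits of the 5295 lower-ranked candidates, with 95% Wilson intervals. The GA repeat stands at 22.6%, 11.9% and 10.7%, and the Hox-PBC core at 22.3%, 14% and 17%.

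The other patterns were searched on both strands in the same windows. The homeodomain core TAATTA was in 9.87% of the regions, 12.3% of the flanks and 11.5% of the lower-ranked candidates, and the GATA site TGATAA, which TGATNNAT can overlap, in 18.2%, 19.7% and 19.7%. The MEIS-class partner site TGACAG was in 8.83%, 8.05% and 6.65%. The E-box CAGCTG was in 4.94%, 3.77% and 2.49%, and CACGTG in 3.12%, 2.99% and 2.85%. TTAGGC, the telomere repeat unit, was in 4.94%, 5.84% and 5.29%. GTTCGA, the core of the B box inside transfer RNA genes, was in 9.61% of the regions, 6.49% of the flanks and 6.12% of the lower-ranked candidates, although only 2 regions lay near a transfer RNA gene. A match is a description of the letters and not a binding site.

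GAGAGA and TGATNNAT occurred together in 22 regions (5.71%), against 1.83% of the lower-ranked candidates, and 60.8% of the regions had neither, against 74.2%. Each pattern alone was also more frequent in the regions, which by itself moves both shares this way. Whether the 2 patterns occur together beyond their separate shares was not tested. Around the summit the GA pattern was highest from 100 bp before to 100 bp after it. In 50 bp bins it began in 8.31%, 7.01%, 7.53% and 7.01% of the 385 regions from 100 bp before to 100 bp after the summit, and in 2.86% and 3.12% in the outermost bins. The Hox-PBC core began in 7.01%, 5.19%, 5.19% and 7.01% in the same 4 bins, and in 4.68% and 4.16% in the outermost ones, a flatter profile.

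**Figure D4:**
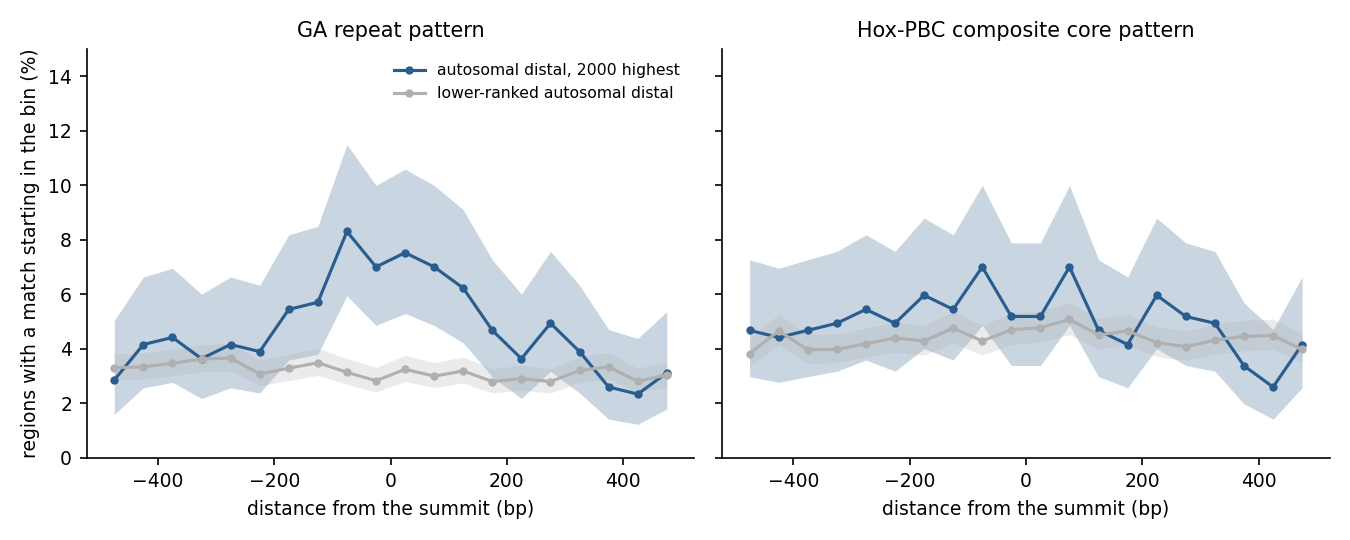
Share of regions (y axis, %) in which a match of the GA repeat (left) or the Hox-PBC core (right) begins in each 50 bp bin, by distance from the summit (x axis, bp), for the 385 regions and the 5295 lower-ranked candidates, with shaded 95% Wilson intervals. The GA repeat reaches 8.31% of the regions in the bin from 100 to 50 bp before the summit and 2.86% at the left edge, and the Hox-PBC core stays between 2.6% and 7.01%.

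The GA share followed the pooled rank and the agreement of the replicates, and the share with the Hox-PBC core did not. These groupings overlap, since 17 of the 46 regions high in both replicates were at pooled ranks 1 to 163 and 22 at ranks 164 to 500. GAGAGA was in 42.9% of the regions at pooled ranks 1 to 163, 29.4% at 164 to 500, 20.2% at 501 to 1000 and 18.4% at 1001 to 2000, and then in 11.8% of the lower-ranked candidates at ranks 2001 to 5000 and 9.87% at ranks 20001 to 30000. TGATNNAT was in 21.4%, 17.6%, 29.8% and 20% in the first 4 bands, and in 16.3% at ranks 2001 to 5000. Of the 46 regions among the 2000 highest of both replicates, 21 held GAGAGA (45.7%, interval 32.2 to 59.8), against 23.2% of those high in replicate 1 only, 17.9% of those high in replicate 2 only and 18% of the rest. TGATNNAT was in 13%, 24.2%, 21.4% and 26% of the same groups. GC content moved with this as well, with medians of 39.6%, 35.3%, 33.6% and 32.8%, and the part of base composition in the GA shares was not tested.

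**Figure D5:**
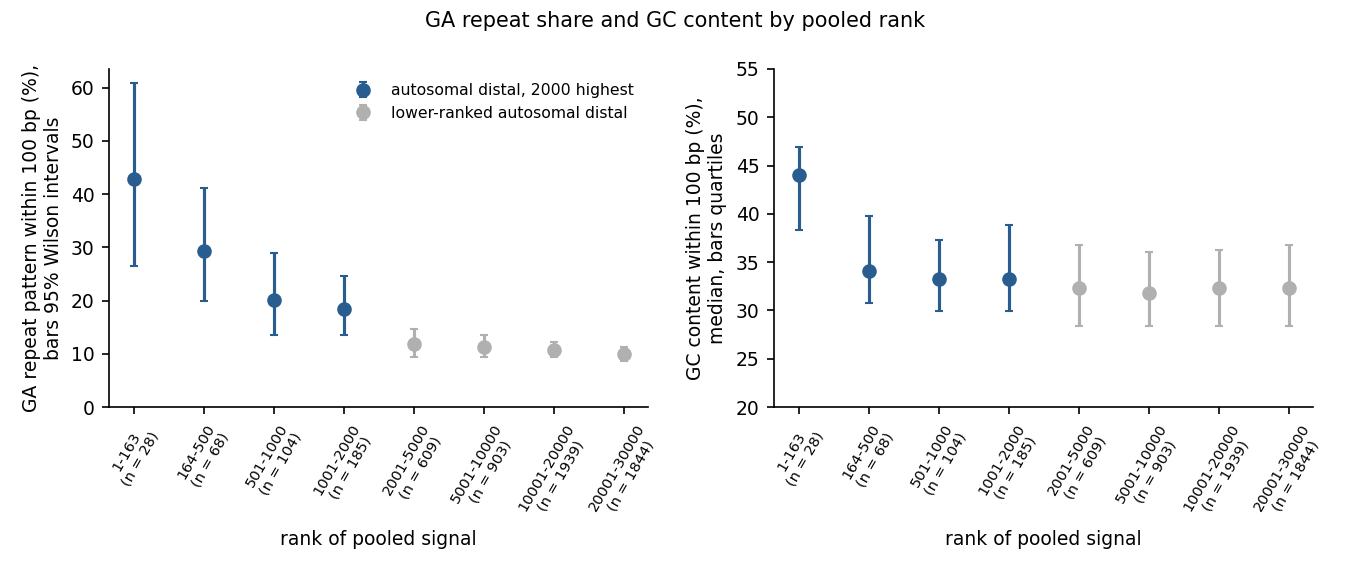
Left, share of autosomal distal regions with the GA repeat pattern within 100 bp of the summit (y axis, %, bars 95% Wilson intervals) by band of pooled rank (x axis). Right, median GC content of the same windows (y axis, %, bars quartiles). The GA share is 42.9% at ranks 1 to 163 and 9.87% at ranks 20001 to 30000, and the median GC content 44% and 32.3%.

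The shares of these patterns were not the same in all classes of the 2000 highest. GAGAGA was in 22.6% of the 385 regions, 20.2% of the autosomal promoter regions, 16.6% of the regions in autosomal genes and 16.2% of the distal X regions. TGATNNAT was in 22.3%, 14.4%, 19.4% and 21.8% of these classes, so the distal regions of autosomes and X had like shares of the core and the promoter regions a smaller one, close to that of their own flanks (14.3%). Among the gaps, GAGAGA was in 22.6% of the regions in tandem gaps, 26.2% in divergent gaps and 11.9% in convergent gaps. No test of these differences was made.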

How the data were processed

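Whole L4 larvae were profiled in 2 samples, biological replicates of 1 group per the labels. The authors deposited peak lists on ce11 and ce10, and only the ce11 lists were used. Per the deposited text listings, each replicate list was called on 1 alignment against a shared control, the pooled list from both, and the thresholded list from these with an irreproducible discovery rate threshold. The software for alignment and calling, and the threshold, are not stated in the sources used. The deposited signal is the caller's enrichment over control and is not comparable between lists, so ranks and the ratio to the list's median (relative signal) were used. The deposited q column was taken as a score and supports no result. The lists give no counts, so depth is unknown. The labels give a library size range of 150 to 350 bp.

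Every interval of the pooled list spans 344 bp and its summit lies at the centre. Genes came from Ensembl release 115 and sequence from RefSeq WBcel235, the build of the lists. The genes described are those flanking the 15 highest regions, small RNA genes within 200 bp (up to 5 per class) and the nearest genes from 11 lists (up to 3 per list), and any further name was picked with its value in view. The regions, lists and 10 patterns were chosen with earlier results of these data known. No test was made, since the regions were selected on the signal. Replicates are numbered as in the labels, and whether they are separate cultures is not stated beyond their being biological replicates. The functions were tested on simulated data. Scripts ran in Python 3.11.15 with pandas 2.3.3, numpy 2.4.6 and scipy 1.17.1, and figures were drawn with matplotlib 3.10.9.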

Additional observations from a re-analysis of the deposited data

How the results depend on the processing

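No paired analysis was possible because both samples belong to 1 group. With the 1000 or 500 highest regions, or the thresholded list alone, in place of the 2000 highest, the regions numbered 200, 96 and 28. The share found in both replicate lists was then 92.5%, 95.8% and 96.4%, and 72.2% with summits within 100 bp. The share among the 2000 highest of both replicates was 22.5%, 40.6% and 60.7%. The share on the thresholded list was 14% and 29.2% with the 1000 and 500 highest. GAGAGA was in 33.3% of the regions with the 500 highest and 42.9% on the thresholded list, in 11.9% within 50 bp and in 30.1% in the whole interval, and TGATNNAT in 8.57% within 50 bp and 33.5% in the whole interval. Median GC content was 37.6% with the 500 highest and 44% on the thresholded list. On the thresholded list the non-coding share was 28.6%, tandem repeats 7.14%, nearest 3' ends 39.3%, arms 57.1% and close spacing 7.14%. With the 500 highest, 15.6% lay on chromosome IV, and 23.7% or 26.5% with the regions chosen from the list of replicate 1 or of replicate 2 alone. The non-coding share was 5.45% with the summit inside the gene, tandem repeats 0.519% within 50 bp, nearest 3' ends 51.1% with a 2000 bp upstream limit, arms 31.4% with the outer 20%, and spacing 24.7% within 10000 bp.

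With the regions chosen from 1 replicate's list alone, the share found also in the other list was 50.6% to 51.1%, GAGAGA 17.6% to 19.3%, TGATNNAT 16.2% to 21.6%, nearest 3' ends 43.8% to 51.1%, and spacing 12% to 16.8%. The cause of these shifts was not tested. The unknown depth, the shared control and the presence of 2 replicates limit every value, and the replicates' own orders differ widely.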
